A study of Mus musculus with 8 samples.

Results

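The baseline small RNA pool of mouse sperm was described from the 4 libraries with the treatment label Control-Cessation, of 8 libraries in the series. They were chosen by that label alone. Per the labels the cells were mature spermatozoa of the C57BL/6J strain, an inbred laboratory mouse, and the 4 libraries carried no EtOH treatment. No age, dose or time was given in the labels, and they do not tell if the libraries stem from different animals. The spread given here is thus that between libraries, which may be technical. Library titles name mature sperm, but the series' design text speaks of caput (proximal epididymis) portions, so marker genes of sperm and of the epididymis are given below. Libraries are numbered replicate 1 to 4 in accession order, which carries no pairing. All values are counts per 1000000 of the library total (CPM), not divided by feature length, so a rank among features of unlike length is a rank of counts. With 1 group no comparison between groups was made.

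Mature sperm are transcriptionally silent and carry small RNAs of several sources. Germ cells contribute miRNAs, which guide Argonaute proteins to target messages through bases 2 to 8 (the seed), and piRNAs, which are cut from long cluster transcripts in the testis and guide PIWI proteins, many of them against transposons. In the epididymis sperm gain further miRNAs and fragments of tRNAs, chiefly from the 5′ end of glycine, glutamate and valine tRNAs.

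The mature sequences of the most abundant miRNAs and of those on which the results turned are shown with the seed in capitals, 5′ to 3′, because shared seeds define the families counted below. They were taken from RefSeq (GRCm38.p6), in which 528 of the 663 mature miRNA names of the table had a sequence.
miR-16-5p: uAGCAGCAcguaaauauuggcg
miR-15b-5p: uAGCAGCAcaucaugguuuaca
let-7a-5p: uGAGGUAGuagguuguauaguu
let-7c-5p: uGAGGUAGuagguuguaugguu
let-7f-5p: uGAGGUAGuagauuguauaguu
miR-191-5p: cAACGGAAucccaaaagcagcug
miR-125b-5p: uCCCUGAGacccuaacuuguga
miR-21a-5p: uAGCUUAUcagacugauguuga
miR-199a-3p: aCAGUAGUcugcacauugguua
miR-34b-3p: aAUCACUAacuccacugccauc
Counted from the 5′ end of let-7a-5p, let-7c-5p differed by A19G and let-7f-5p by G12A, both outside the seed.

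In GRCm38.p6 with GENCODE M21 genes, miR-16-5p was encoded at chr3:69009918-69009939 on the plus strand, in an intron of Smc4 beside miR-15b-5p (chr3:69009775-69009796). A further copy of miR-16-5p lay at chr14:61631936-61631957 on the minus strand, in an intron of the noncoding gene Dleu2. The sequences of let-7a-5p (chr13:48538239-48538260) and let-7f-5p (chr13:48537889-48537910) lay in an exon of the long noncoding gene 6720427I07Rik, with a further let-7f-5p copy in an intron of Huwe1 (chrX:151912353-151912374). The annotated rows also name a precursor let-7a-2, for which no locus is given here. Both let-7c-5p loci were in noncoding genes, an exon of Lncppara (chr15:85706616-85706637) and an intron of Mir99ahg (chr16:77599672-77599693). The sequence of miR-191-5p lay at chr9:108568325-108568347 in an exon of the long noncoding gene 4833445I07Rik, and miR-21a-5p at chr11:86584120-86584141 in an exon of Vmp1. The other names of the 10 most abundant miRNAs were miR-143-3p, miR-669a-3p and miR-34c-5p.

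The libraries held 4356786, 4210785, 4341914 and 4768713 counts in replicates 1 to 4, over 1010917 annotated rows in 8 classes. Of these rows 552682 had a count in at least 1 of the 4 libraries and 1654 had a mean count of at least 100, and these 1654 held 87.5% of the counts. No pair of libraries agreed within sampling noise, with a chi-square per degree of freedom of 18.5 to 80.9 over rows with a mean count of at least 10. Pearson correlation of log2(CPM + 1) across those 8908 rows, a description across features, was 0.916 to 0.957 in the 6 pairs. Among those rows the 3 pairs with replicate 2 were the lowest. Over the 552682 rows with a count they were not: replicates 1 and 3 (0.804) lay below replicates 2 and 4 (0.817).

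Replicate 2 stood apart from the others in miRNAs of smooth muscle, a tissue that sheathes the epididymis and vas deferens. The smooth muscle miRNAs miR-143 and miR-145 summed to 5106, 33401, 1653 and 6929 CPM in replicates 1 to 4. Smooth muscle messages (Acta2, Myh11, Tagln, Des, Cnn1) summed to 37.4, 101.6, 18.7 and 18.0 CPM, so replicate 2 was highest in both lists, and all 5 messages had their highest value there. Myh11, the smooth muscle myosin heavy chain, was at 19.5, 52.5, 10.8 and 10.5 CPM. In bulk libraries more cells of a type and more RNA per cell cannot be told apart, and the part of this signal in the other differences of replicate 2 was not tested. The shares of structural RNA, piRNA clusters and miRNA, the largest miRNA CVs and the median CVs of some classes are therefore also given without replicate 2.

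Structural RNA, which here is almost all tRNA, held the largest share of the deposited counts, followed by piRNA clusters and miRNAs. Structural RNA took 31.7%, 34.6%, 37.5% and 33.95% of the library in replicates 1 to 4, 34.4% ± 2.42 (SD, n = 4). The piRNA clusters took 23.6%, 14.7%, 20.3% and 25.1%, 20.9% ± 4.63. The miRNAs took 18.6%, 27.7%, 17.8% and 16.8%, 20.2% ± 5.06, so replicate 2 was the highest library in miRNA and the lowest in piRNA clusters. Without replicate 2 the shares were 34.4% ± 2.96 for structural RNA, 23.0% ± 2.44 for piRNA clusters and 17.7% ± 0.896 for miRNA (SD, n = 3). Exons held 7.45% ± 0.283, introns 7.35% ± 0.491, antisense repeats 4.80% ± 0.783, sense repeats 4.70% ± 0.472 and miRNA hairpins 0.121% ± 0.0292. Each SD exceeded the error of counting alone, by 17.6 times for hairpins and up to 265 times for miRNA.

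The order of the classes depended on how copies were counted. In the table, rows of near-identical copies, defined here as rows of 1 name whose counts agree within 3% in every library, occurred in 68 groups of structural RNA (304 rows, up to 36 in a group) and 39 groups of piRNA clusters (83 rows). With each such group counted once, the means were 16.1% ± 1.23 for structural RNA, 27.9% ± 6.22 for miRNA and 22.3% ± 5.19 for piRNA clusters. The order differed between libraries: piRNA clusters exceeded miRNA in replicate 4 (27.2% and 23.7%), and structural RNA exceeded piRNA clusters in replicate 2 (16.9% and 15.1%). Without replicate 2 the means of miRNA and piRNA clusters were alike, 24.8% ± 0.915 and 24.7% ± 2.46 (n = 3), so the higher mean of miRNA rested on that library. Keeping only the highest row of each structural RNA name and piRNA cluster gave 11.2% ± 1.03, 30.3% ± 6.62 and 21.7% ± 5.11, and without replicate 2 11.0% ± 1.14, 27.0% ± 0.948 and 24.04% ± 2.43. The table does not say whether reads that match several copies were counted at each, and these alternatives were chosen after the values were seen.

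**Figure D1:**
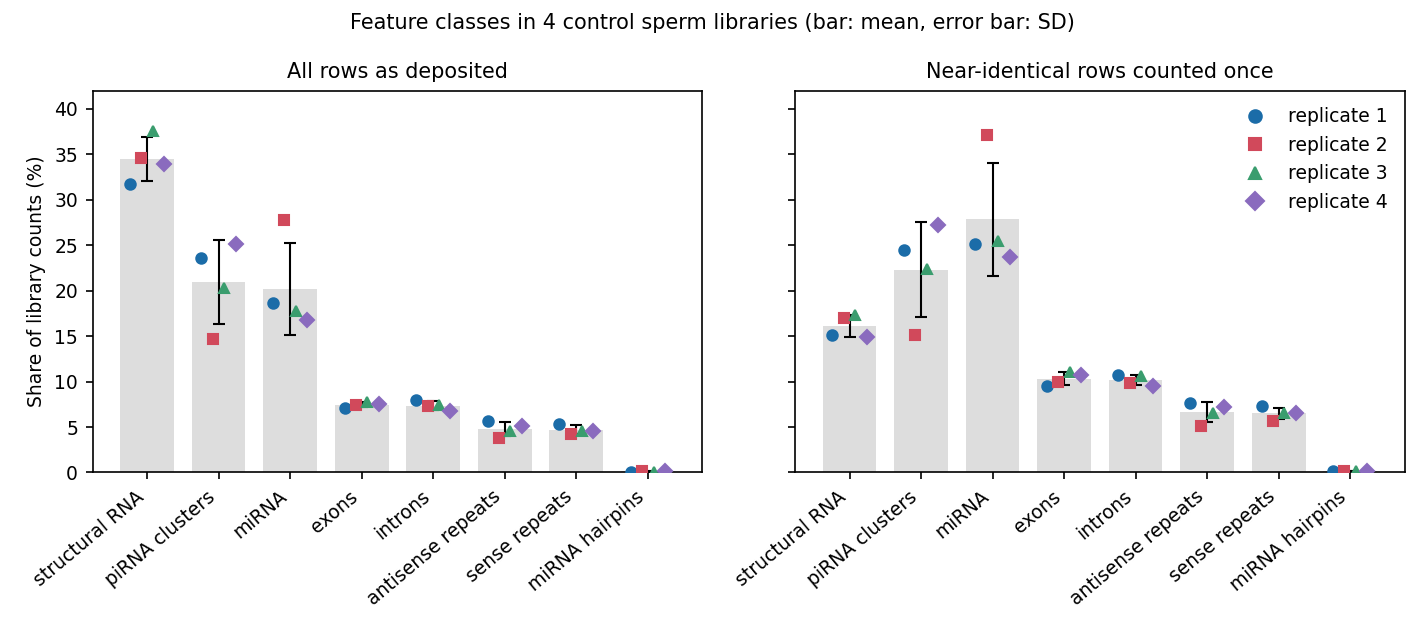
Share of library counts (%) in each of the 8 classes, with all rows as deposited (left) and with near-identical rows counted once (right); bars are means of 4 libraries, error bars SD and symbols single libraries. Structural RNA led at 34.4% on the left and stood at 16.1% on the right, while replicate 2 was the highest library in miRNA and the lowest in piRNA clusters in both panels.

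A single miRNA, miR-16-5p, a regulator of cell cycle messages, was the most abundant feature of the whole table. It was at 59403, 79673, 45086 and 47134 CPM in replicates 1 to 4, 57824 ± 15879 (SD, n = 4), or 28.6% of miRNA counts. The next feature over all classes, a piRNA cluster, was at 12969.8 CPM. miR-16-5p ranked first in each library by a wide margin, and replicate 2 held the highest value.

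The let-7 miRNAs, which rise with differentiation in many tissues, were next, but their single members differed widely between libraries. let-7a-5p was at 16337, 0, 15099.8 and 13605 CPM. let-7c-5p was at 7327, 0, 13423 and 11222 CPM. Both were listed at 0 in replicate 2, where let-7f-5p, a sequence 1 base away from let-7a-5p, had its highest value (3892, 11472, 6999 and 6126 CPM). The lowest of the other 3 libraries would predict 57289 counts of let-7a-5p and 30854 of let-7c-5p in replicate 2. The cause of the listed 0 was not tested, and a mean of either member includes that 0.

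Among the other abundant miRNAs, miR-143-3p, enriched in smooth muscle, was at 4141, 25243, 1392 and 6037 CPM, with replicate 2 far above the rest. miR-21a-5p, common in epithelium and stroma, was at 2828, 13207, 3719 and 3059 CPM. miR-125b-5p was at 4432, 10105, 5660.2 and 4780.3 CPM. Replicate 2 was the highest library for all 3. It was the highest in 94 of the 140 miRNAs with a mean count of at least 100. At that count replicate 2 was also highest in 6 of 9 hairpin, 197 of 454 structural RNA, 59 of 172 intron and 58 of 263 exon rows. For sense repeats this held for 10 of 189 rows, for antisense repeats for 1 of 263 and for piRNA clusters for 0 of 164.

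Smaller differences between libraries were seen for miR-191-5p, at 8991, 8544, 6557 and 5892 CPM, and for miR-669a-3p, from the miRNA cluster in an intron of Sfmbt2, at 8545, 8235, 6247 and 4628 CPM. For both, replicates 1 and 2 were above replicates 3 and 4. miR-34c-5p, a miRNA of meiotic and postmeiotic germ cells, was at 5246, 6612, 4498 and 5244 CPM, 5400.1 ± 882. Its coefficient of variation (CV, SD over mean) of 16.3% was among the 3 smallest of miRNAs with a mean of at least 1000 CPM, beside miR-92a-3p (8.88%) and miR-30c-5p (18.1%). The 3 largest were miR-145a-5p (145.01%), miR-199a-3p (130.1%) and miR-143-3p (118%), each highest in replicate 2. Without replicate 2 their CVs were 54.8%, 15.4% and 60.5%, and those of miR-34c-5p, miR-92a-3p and miR-30c-5p were 8.64%, 9.67% and 13.5%.

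**Figure D2:**
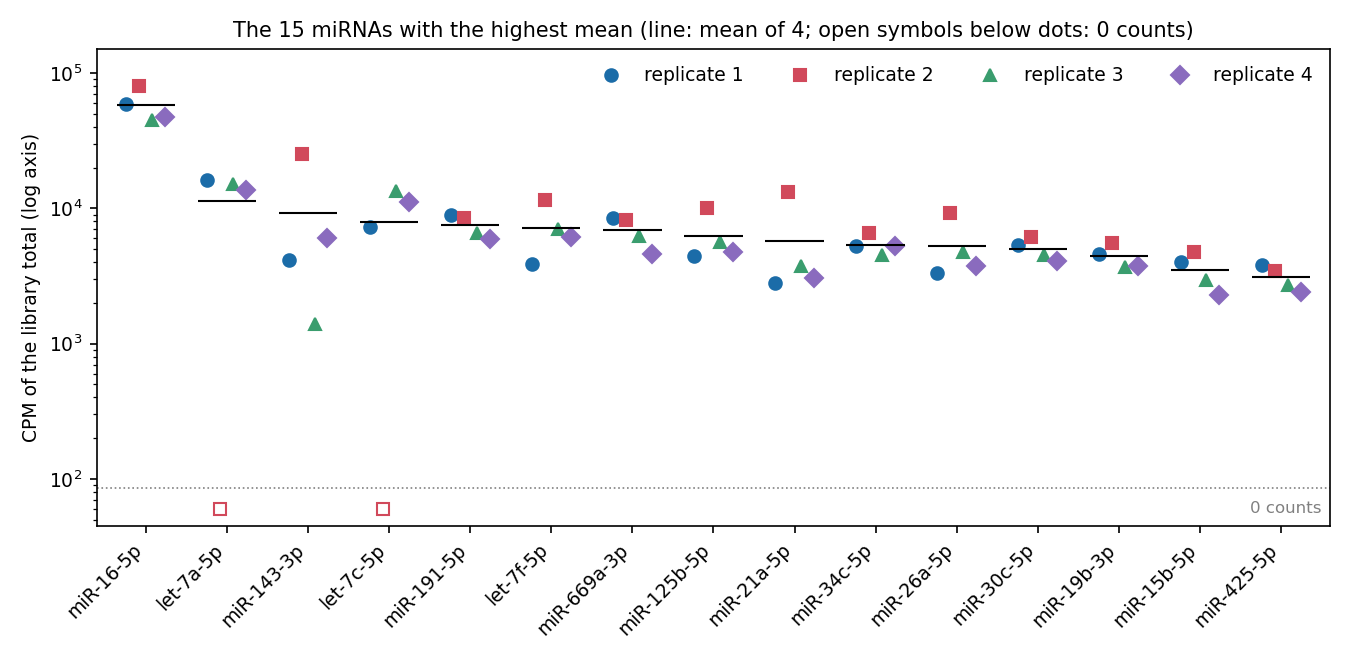
CPM of the library total (log axis) of the 15 miRNAs with the highest mean; symbols are libraries, lines are means of 4 and open symbols under the dotted line mark 0 counts. miR-16-5p stood above the others in every library, replicate 2 was far above the rest for miR-143-3p and miR-21a-5p, and 2 let-7 members, a and c, had 0 counts in replicate 2.

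Families were summed by seed over the 528 matched names only, and among these 2 families held 45.8% of miRNA counts. The AGCAGCA family (miR-16-5p, miR-15b-5p, miR-15a-5p, miR-195a-5p, miR-497a-5p) was at 64176, 86054, 48627 and 49984 CPM, 30.8% of miRNA counts. The GAGGUAG family (9 let-7 and miR-98 rows) was at 30154, 18138, 39502 and 33932 CPM, 15.1% of miRNA counts. The lower let-7 value of replicate 2 contains the zeros of let-7a-5p and let-7c-5p. Without these 2 members the list of let-7 and miR-98 rows was at 6506.4, 18179.5, 10996.5 and 9127.2 CPM, with replicate 2 the highest.

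The next families among the matched names were each under 4% of miRNA counts. AACGGAA, which is miR-191-5p alone, stood at 7496 ± 1504 CPM. CCCUGAG (miR-125b-5p, miR-125a-5p, miR-351-5p) was at 6577 ± 2938 CPM and UCAAGUA (miR-26a-5p, miR-26b-5p) at 6129 ± 3195 CPM. Replicate 2 was the highest in both, at 10888 and 10807 CPM. The GUAAACA family (miR-30c-5p, miR-30a-5p, miR-30e-5p, miR-384-5p), with miR-30a-5p and miR-30e-5p listed at 0 in some libraries, was at 5899 ± 1754 CPM. That sum does not include miR-30b-5p or miR-30d-5p. Both strands of miR-30b together were at 723 CPM, and miR-30d-5p was at 1611 CPM in replicate 3 alone. The place of the miR-30 family thus holds for the matched names only. AGCUUAU, which is miR-21a-5p alone, was at 5703 ± 5017 CPM, and GUGCAAA (miR-19b-3p, miR-19a-3p) at 4695 ± 974 CPM. AAAGUGC (the miR-17 and miR-93 family) and ACCCUGU (miR-10a-5p, miR-10b-5p) closed the 10 largest matched families at 3634 ± 849 and 3602 ± 732 CPM, and the 10 families together held 67.5% of miRNA counts.

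In sequence, the abundant miRNAs had 2 common features that the choice of libraries did not use. A 5′ uridine, the base that Argonaute proteins favour, stood at the start of 43.9% of the 528 matched names but of 83.9%, 81.3%, 85.2% and 85.1% of their counts in replicates 1 to 4. Names of 22 bases, 301 of the 528, held 77.5% of the matched counts, and names of 23 bases, 91 of the 528, held 19.6%. miR-16-5p alone, with a mean of 57824 CPM, has a 5′ uridine and 22 bases and so weighs on both shares. The matched names held 83.8% of miRNA counts.

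Each hairpin gives a 5p and a 3p strand, and the strand used was nearly fixed. Of 54 hairpins with both strands in the table and at least 100 CPM, 26 had at least 90% of their counts on the 5p strand, 22 at least 90% on the 3p strand and 6 lay between. The median SD of the 5p share between libraries was 0.253 percentage points. For miR-34c the 5p share was 92.7%, 93.3%, 94.1% and 94.9%. For miR-669a it was 4.18%, 3.29%, 4.23% and 3.05%, so its counts came from the 3p strand in all 4 libraries. In 3 hairpins the share varied by an SD of more than 20 points, each with a strand listed at 0 in some libraries. For miR-34b it was 100%, 27.1%, 14.8% and 21.6%, for miR-30a 0%, 96.0%, 97.2% and 0%, and for miR-449a 100%, 0%, 100% and 100%.

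Listed zeros of this kind were searched over all classes, as features at 0 in 1 to 3 libraries whose lowest other CPM predicts at least 50 counts. They were found for 34 features and 58 pairs of a feature and a library, of which 21 features were miRNAs, 9 sense repeats and 4 antisense repeats. The zeros fell in all libraries, 16, 17, 9 and 16 in replicates 1 to 4. Of the 140 miRNAs with a mean count of at least 100, 15 were affected.

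With a predicted count of at least 1000, all the zeros were of miRNAs. Besides let-7a-5p and let-7c-5p they were miR-34b-3p in replicate 1 (0, 3498, 3497 and 2415 CPM in the 4 libraries), miR-30e-5p in replicate 4, and miR-30a-5p and miR-141-3p in replicates 1 and 4. miR-30d-5p had counts only in replicate 3, at 1611 CPM. Of the 11 affected abundant miRNAs with a sequence, 5 lay within 2 mismatches of another mature miRNA of the table, as did 37 of the 93 unaffected ones, so such zeros were seen both with and without a close relative.

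The miRNA class also contained 289 rows with precursor names, and these were close in total to the separate hairpin class. The precursor rows summed to 4436, 6266, 3931 and 6872 counts and the hairpin class to 4466, 6261, 3926 and 6846. Single rows differed: mir-451a, an erythroid hairpin that is processed without Dicer, had 958, 1844, 492 and 3849 counts in the miRNA class and 708, 1467, 411 and 2650 in the hairpin class. By mean, mir-451a led the hairpin class, at 163, 348, 94.7 and 556 CPM in replicates 1 to 4. It was followed by mir-881, an X-linked testis hairpin (173 ± 61.5 CPM), and mir-101b (143.3 ± 42.2 CPM). Next were mir-3535 (61.4 ± 8.85 CPM) and mir-142a, a blood cell hairpin (47.9 ± 14.4 CPM). The order differed between libraries: mir-881 lay above mir-451a in replicate 1, and both mir-881 and mir-101b did in replicate 3.

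Groups of miRNAs known from germ cells, and apart from them the Sfmbt2 cluster, were present in every library. The 8 rows of miR-34b, miR-34c and miR-449, a family with roles in spermatogenesis, summed to 6831, 11887, 9073 and 8810.3 CPM, with the lowest sum in replicate 1, where miR-34b-3p was at 0. Without the 2 members that have such zeros the sums were 6509.9, 8389, 5390.3 and 6191 CPM, lowest in replicate 3. The 31 rows of X-linked testis miRNAs all had counts and summed to 5199.9, 5668, 2883 and 3106 CPM. The Sfmbt2 cluster, with 57 of 63 rows above 0, summed to 13339, 13016, 10002 and 7729 CPM. Replicates 1 and 2 were above replicates 3 and 4 in both of the last lists.

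miRNAs of other tissues were also present. The epithelial miR-200 family, abundant in the epididymal epithelium, summed to 1158, 2156, 4357 and 2744 CPM, led by miR-200b-3p (626, 822, 2262 and 1280.4 CPM). Without miR-141-3p, listed at 0 in replicates 1 and 4, the sum was 1158, 1787, 3886 and 2744 CPM. Red blood cell miRNAs summed to 245, 691, 102 and 1084 CPM, with miR-451a at 115, 466.4, 50.4 and 639 CPM, so replicates 2 and 4 were high. Striated muscle miRNAs (miR-1, miR-133, miR-499) summed to 1149, 3389.9, 318 and 695 CPM, also highest in replicate 2 and lowest in replicate 3. Leukocyte miRNAs summed to 215, 214, 262 and 312 CPM, but miR-142a-5p was listed at 0 in replicate 2. Without it they summed to 39.7, 214, 55.5 and 74.2 CPM, with replicate 2 the highest. The liver miRNA miR-122-5p was at 9.18, 30.9, 1.15 and 2.73 CPM.

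Fragments named for tRNAs made up 95.5% of structural RNA counts, and glycine and glutamate isotypes led. All tRNA rows summed to 302158, 329779, 359898 and 323026 CPM, 328715 ± 23883, a CV of 7.27%. Glycine tRNA rows summed to 69770.5, 72061, 99984 and 92622 CPM, and glutamate rows to 74519, 81657, 79195 and 88426 CPM. Valine rows were at 27209, 28864, 62002 and 36000.1 CPM, with replicate 3 above the others. The table gives no read positions or lengths, so 5′ fragments, 3′ fragments and whole tRNAs cannot be told apart.

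Serine (27208 ± 4848 CPM), leucine (26779.6 ± 3754 CPM) and lysine (16937 ± 3446 CPM) followed. Most of the glycine and glutamate total came from tRNA-Gly-GGY, at 80332 ± 14618 CPM over 25 rows, and tRNA-Glu-GAG, at 80740.5 ± 5804 CPM over 29 rows. In tRNA-Gly-GGY 10 rows held near-identical counts, each at 7369 ± 1384 CPM. With near-identical rows counted once, glutamate stood at 19617 CPM, leucine at 19139, serine at 14235, valine at 12819, glycine at 10510.4 and lysine at 3389. Selenocysteine (7977 CPM) and aspartate (3751 CPM) then lay above lysine. The place of glycine among isotypes thus rested on its copies.

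Some tRNA names were carried by 1 row. The highest single row of the class was tRNA-SeC(e)-TGA_copy3, named for the selenocysteine tRNA, at 8404, 9776, 7333 and 6397 CPM. The next was tRNA-Leu-TTA_copy2, at 8134, 9605, 6355 and 5830.3 CPM. Both had their highest value in replicate 2 and their lowest in replicate 4, unlike the glycine rows, which were highest in replicate 3. A single tRNA-Gly-GGY row, copy41, had one of the 2 largest CVs of the rows with at least 100 CPM (63.2%), at 135, 184, 529 and 263 CPM, beside U8_copy3, which the table lists with snRNAs, at 114, 338, 146 and 97.7 CPM (64.0%). The smallest were tRNA-Asp-GAY_copy23 (5.25%) and tRNA-Ala-GCY_copy10 (6.94%).

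The remaining structural RNAs were small by comparison. Spliceosomal and other snRNAs summed to 8715 ± 583 CPM, 7SL, the RNA of the signal recognition particle, to 2859.9 ± 592 CPM, and 4.5S RNA to 1750.1, 2043, 3482 and 3881 CPM. Ribosomal RNA was at 752, 957, 733 and 587 CPM, under 0.1% of the library in each case. Y RNA was at 377 ± 38.7 CPM and BC1 at 113 ± 24.4 CPM.

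The piRNA clusters kept an almost fixed composition while their total changed between libraries. The total, relative to the mean of the 4, was 1.13, 0.701, 0.972 and 1.20 in replicates 1 to 4. The cluster named 18-qE1-36451.1 led at 14985, 9339, 12292 and 15263 CPM, followed by 9-qC-31469.1 at 12376, 7620.0, 10803 and 13445 CPM and 17-qA3.3-27363.1 at 10482, 6510.2, 9978 and 11768 CPM. Next were 6-qF3-28913.1 (8741 ± 1935 CPM) and 9-qA5.3-24188.1 (8573 ± 1906 CPM). All 5 had their lowest value in replicate 2 and their highest in replicate 4, as the class total had.

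Of the 164 cluster rows with a mean count of at least 100, 162 were lowest in replicate 2 and 148 highest in replicate 4. At that count replicate 2 was lowest in 244 of 263 antisense repeat, 161 of 189 sense repeat and 139 of 263 exon rows. The same held for 34 of 172 intron, 21 of 454 structural RNA, 12 of 140 miRNA and 1 of 9 hairpin rows. In the same order of classes replicate 4 was highest in 173, 110, 102, 35, 80, 9 and 3 rows. The leading cluster held 6.35%, 6.37%, 6.05% and 6.08% of cluster counts, and 72 rows held 90% of them in every library. After each library was scaled to its cluster total, 148 of the 164 rows had a CV under 10%, with a median of 3.91%, against 22.8% before. The rows of 1 cluster are not independent: the 329 rows belong to 167 clusters, 109 of them with several rows, and the pair 2-qE1-35981.1 and 2-qE1-35981.2 had 6904 and 6912 CPM. Among cluster rows of at least 100 CPM the largest CVs were those of 17-qA3.3-352.2 (29.0%) and 17-qA3.3-352.1 (28.6%), and the smallest those of 10-qC1-875.3 (17.4%) and 11-qE1-252.1 (18.1%).

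The same profile across libraries was seen in loci outside the cluster class. Under the same scaling, 150 of 263 antisense repeat rows, 91 of 189 sense repeat rows, 80 of 263 exon rows and 24 of 172 intron rows had a CV under 10%, and none of the 140 miRNA, 454 structural RNA or 9 hairpin rows did. These counts depend on the tolerance: at 5% they were 41, 32, 24 and 12, and at 20% they were 229, 152, 115 and 33. At 20%, 1 miRNA, 13 structural RNA and 2 hairpin rows passed as well. The scaling uses the cluster rows themselves, so their own count is a description. Loci that overlap a cluster may share its reads, which the table does not resolve. Some clusters are named for genes that also have exon rows, among them 1700006A11Rik and Tmem194.

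Exon counts were led by loci of long noncoding genes rather than by messages of sperm proteins. Gm5878 exons summed to 1708, 1049, 1317 and 1712 CPM and 1700001L05Rik exons to 1452, 911, 1217 and 1509.8 CPM. Gm10619 was at 1284, 767, 1118 and 1362 CPM. All 3 are long noncoding genes in GENCODE M21, were lowest in replicate 2, and had a CV of 5.01%, 1.78% and 2.11% after scaling to the cluster total. A scaled CV under 5% was also found for 1700029M20Rik (2.68%), 4931408D14Rik (4.18%), 1700042G15Rik (4.10%), 1700006A11Rik (4.64%) and Tmem194 (4.11%), with means of 791 to 1014 CPM. Of these genes, 1700006A11Rik and Tmem194 also give their names to clusters of the piRNA class.

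Snord85, a C/D box snoRNA, was the exception near the top, at 1216, 1305, 1196 and 749 CPM, with replicate 4 lowest. The 115 snoRNA and scaRNA rows summed to 4906, 6074, 5735 and 4083 CPM. Gm3893, the tenth gene, was at 524, 411, 908 and 934 CPM, with replicates 3 and 4 high. The 13 protein genes of the mitochondrial genome were also highest in those libraries, at 1591, 1153, 3719.8 and 2682 CPM, and COX2 (135, 89.1, 399 and 260.0 CPM) and ATP6 (90.4, 65.8, 265 and 226 CPM) had the largest CVs among exon rows of at least 100 CPM (62.9% and 60.9%). The smallest were those of 4930412O13Rik (5.99%) and Snord100 (11.2%).

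Intron counts had 3 kinds of leading loci. The first kind followed the cluster total: LOC100125594 introns summed to 6195, 4032, 4983 and 6244 CPM, and after scaling the CV was 5.32%. Gm21221 (1819 ± 391 CPM), Gm10619 (1815 ± 411), Stox1 (1671 ± 371), Kcnk10 (1496 ± 318) and Prkca (889 ± 190.3) were of this kind, with scaled CVs of 0.976% to 4.97%, the smallest for Stox1. All were lowest in replicate 2.

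The second kind was made of snoRNA host genes, whose introns carry snoRNAs. Snhg1 introns were at 2047, 2418, 2649 and 1411 CPM and Gas5 introns at 916, 1085, 1541 and 1023 CPM, both highest in replicate 3. The third kind was 1 high intron in a gene with neither property: Myo3a, an unconventional myosin, at 3096, 3074, 2337 and 1589 CPM, and Pcsk5, a proprotein convertase, at 1705, 1759, 2408 and 3447 CPM. Their 4 libraries ran in opposite directions. Intron 29 of Myo3a (transcript NM_148413.3) alone held 2521 CPM of its 2524.

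The largest CVs of intron rows with at least 100 CPM were those of Gpc5 intron 6 (97.4%), at 1018, 651, 119 and 72.1 CPM, and Zfp804b intron 2 (42.7%), at 350.3, 516, 295 and 172 CPM. Gpc5, a heparan sulfate proteoglycan, was high in replicates 1 and 2, as were the X-linked testis miRNAs and the Sfmbt2 cluster. Introns of the ribosomal protein genes Rpl17 (6.15%) and Rpl21 (10.5%) had the smallest CVs.

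**Figure D3:**
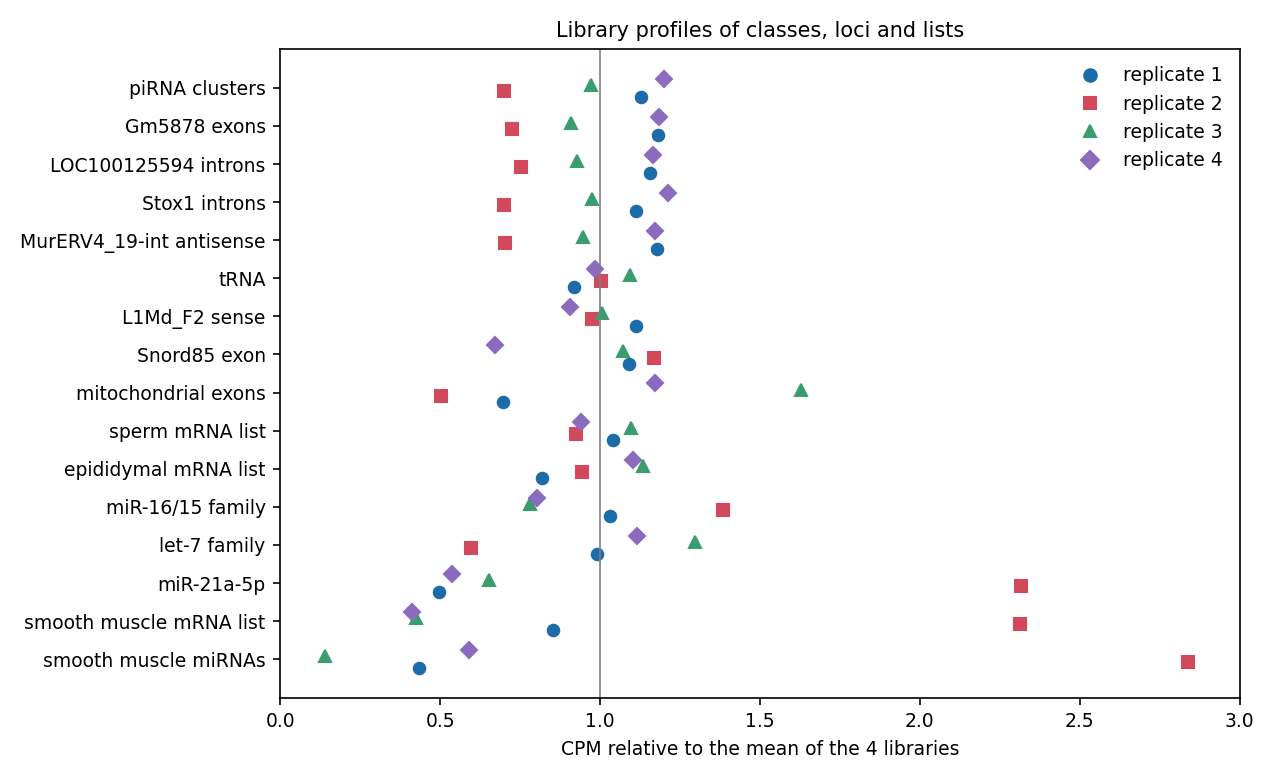
CPM in each library relative to the mean of the 4 libraries for classes, single loci and marker lists; symbols are libraries and the vertical line marks the mean. The upper 5 items share the profile of the piRNA clusters with replicate 2 near 0.7, tRNA stayed near 1 in all libraries, and the smooth muscle lists and miR-21a-5p were above 2 in replicate 2.

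Repeats in sense orientation were led by 1 copy of a LINE. The row L1Md_F2_copy29260, an L1 element, was at 12685, 11221, 11539 and 10392 CPM, 24.4% of the class, and held 97.1% of all L1Md_F2 sense counts over 7351 rows. FordPrefect_copy126, a DNA transposon, was at 1778, 2374, 1808 and 1029 CPM and held 99.9% of its name's counts. Neither was lowest in replicate 2, and the L1Md_F2 row had a CV of 8.28%, the smallest of sense rows of at least 100 CPM, beside MER52-int_copy157 (9.81%).

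Next among single sense rows were ORR1A2-int_copy1007 (376, 807, 487 and 758 CPM), B1_Mus1_copy58276 (595, 426, 443 and 450.4 CPM) and Charlie1a_copy967 (514, 334, 413 and 561 CPM). By name, RLTR4_MM-int, an endogenous retrovirus related to murine leukemia virus, ranked next at 458, 994, 1076 and 1082 CPM. It was low in replicate 1, where the rows RLTR4_MM-int_copy377 and RLTR4_MM-int_copy293 were listed at 0. B3 (731 ± 112 CPM), MIRb (696 ± 109 CPM) and L2c (670.3 ± 137 CPM) completed the 6 largest names.

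Copies of 1 retroviral family ran in opposite directions between libraries. MuLV-int_copy203 was at 1.61, 421, 40.1 and 3.98 CPM and had the largest CV of sense rows of at least 100 CPM (175%). MuLV-int_copy205 was at 185, 1.42, 83.8 and 173 CPM (77.4%). Where the first was high the other was low, and the counts of such related copies are uncertain one by one.

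Antisense repeats were spread over more loci. MurERV4_19-int was at 2515, 1498, 2021 and 2498 CPM by name, 96.1% of it in copy607. L1M2 was at 2113, 1339.9, 1608 and 1976 CPM, with copy15762 (875 ± 154 CPM) and copy15765 (708 ± 183 CPM) the leading rows. ORR1F (1341 ± 265 CPM), ORR1F-int (1201 ± 262), Lx9 (1099 ± 188) and RLTR14-int (1009.7 ± 213) followed, and MIRc_copy17971 (673 ± 149 CPM) was the fifth row. All 6 names were lowest in replicate 2, and 244 of the 263 antisense rows with a mean count of at least 100 were. Among antisense rows of at least 100 CPM the largest CVs were those of L1_Mus2_copy9718 (53.7%) and L1_Mus2_copy9715 (40.5%).

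The sense share of repeat counts differed by order. LTR elements had 40.8%, 44.9%, 41.7% and 41.1% of their counts in sense orientation in replicates 1 to 4, and SINEs 47.1%, 47.9%, 47.8% and 46.5%. LINEs had 54.8%, 59.1%, 57.0% and 53.4%, above 50% in all libraries. Without the row L1Md_F2_copy29260, a choice made after the values were seen, LINEs had 35.4%, 36.1%, 35.0% and 33.4%, so this row alone set the side of 50% on which LINEs fell. DNA transposons had 62.4%, 70.3%, 63.9% and 57.0%, and without the row FordPrefect_copy126, likewise a later choice, 49.4%, 49.98%, 48.4% and 48.2%.

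In number of features, not scaled to class size, counts lay in fewer rows in the small RNA classes than in the others. The classes differ widely in size. There were 952 miRNA, 458 hairpin, 329 piRNA cluster and 3495 structural RNA rows. Exons had 149859 rows, introns 132709, sense repeats 330691 and antisense repeats 392424. A class share of 50% was held by 4, 5, 6 and 5 miRNAs in replicates 1, 2, 3 and 4, and 90% by 35 to 38. For hairpins 50% was held by 3 to 5 rows, for piRNA clusters by 17 or 18 and for structural RNA by 25 to 30. For sense repeats the number was 53 to 79, for antisense repeats 109 to 211, for introns 157 to 784 and for exons 352 to 1177. The leading feature held 28.5% ± 2.71 of miRNA, 24.4% ± 1.67 of sense repeat, 6.21% ± 0.172 of piRNA cluster and 2.03% ± 0.355 of exon counts.

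Over the whole table, 50% of a library lay in 72 to 84 rows, and the 10 highest rows held 14.5% to 18.9%. The number of exon rows was largest in replicate 2, at 1177, and smallest in replicate 1, at 352. With near-identical rows counted once, 50% of structural RNA was held by 11.0 ± 1.15 rows and of piRNA clusters by 11.2 ± 0.5, fewer than with all rows (27.2 and 17.5).

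**Figure D4:**
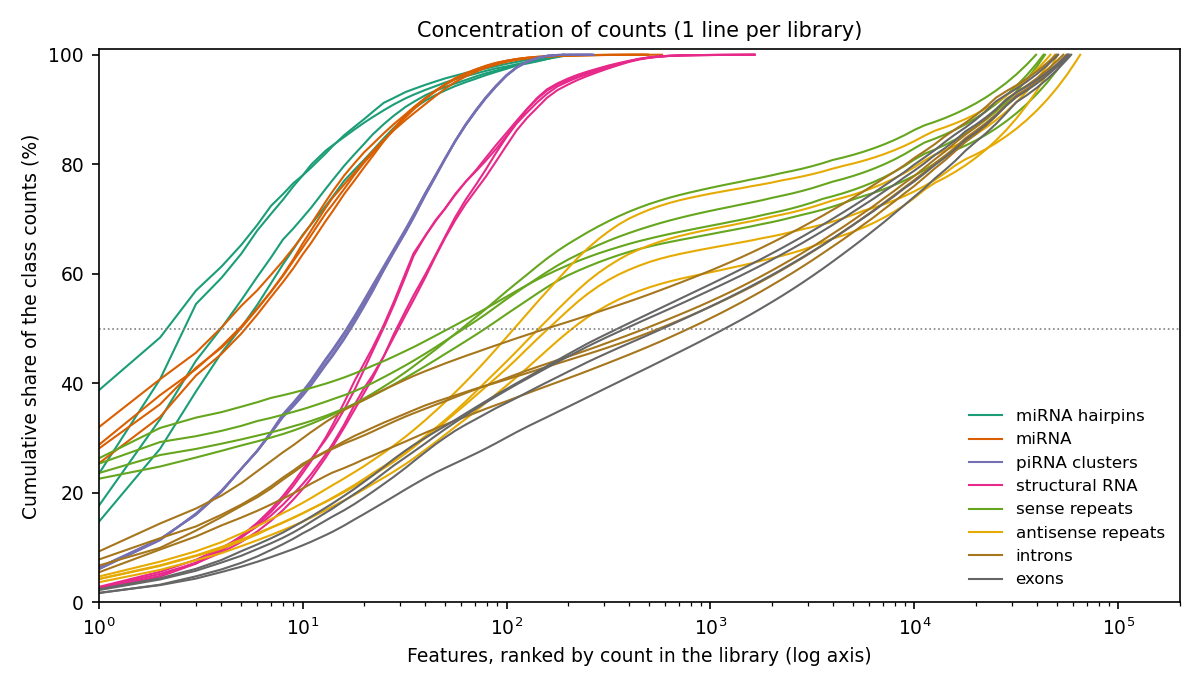
Cumulative share of the class counts (%) against features ranked by count in each library (log axis), 1 line per library; the dotted line marks 50%. The miRNA and hairpin lines cross 50% within 6 features, the 4 piRNA cluster lines nearly coincide, and the exon lines cross between 352 and 1177 features.

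The spread between libraries was largest for miRNAs. Over features with a mean count of at least 100, the median CV was 40.6% for miRNA (140 features), 30.6% for hairpins (9), 24.9% for sense repeats (189) and 24.6% for antisense repeats (263). It was 22.8% for piRNA clusters (164), 22.7% for exons (263), 21.5% for structural RNA (454) and 21.4% for introns (172). Poisson counting alone would give medians of 2.18% to 7.05%. The miRNA features lay a median of 14.3 times above their counting error, and piRNA cluster rows 10.7 times.

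Without replicate 2 the median CV was 28.3% for miRNA, 11.5% for piRNA clusters, 13.9% for antisense repeats, 15.1% for sense repeats and 20.1% for hairpins. In the piRNA class the quartiles with all 4 libraries were close, 21.6% and 24.1%, whereas in the miRNA class they were 30.9% and 74.4%. Cluster rows thus varied by similar amounts and miRNAs by unlike ones.

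**Figure D5:**
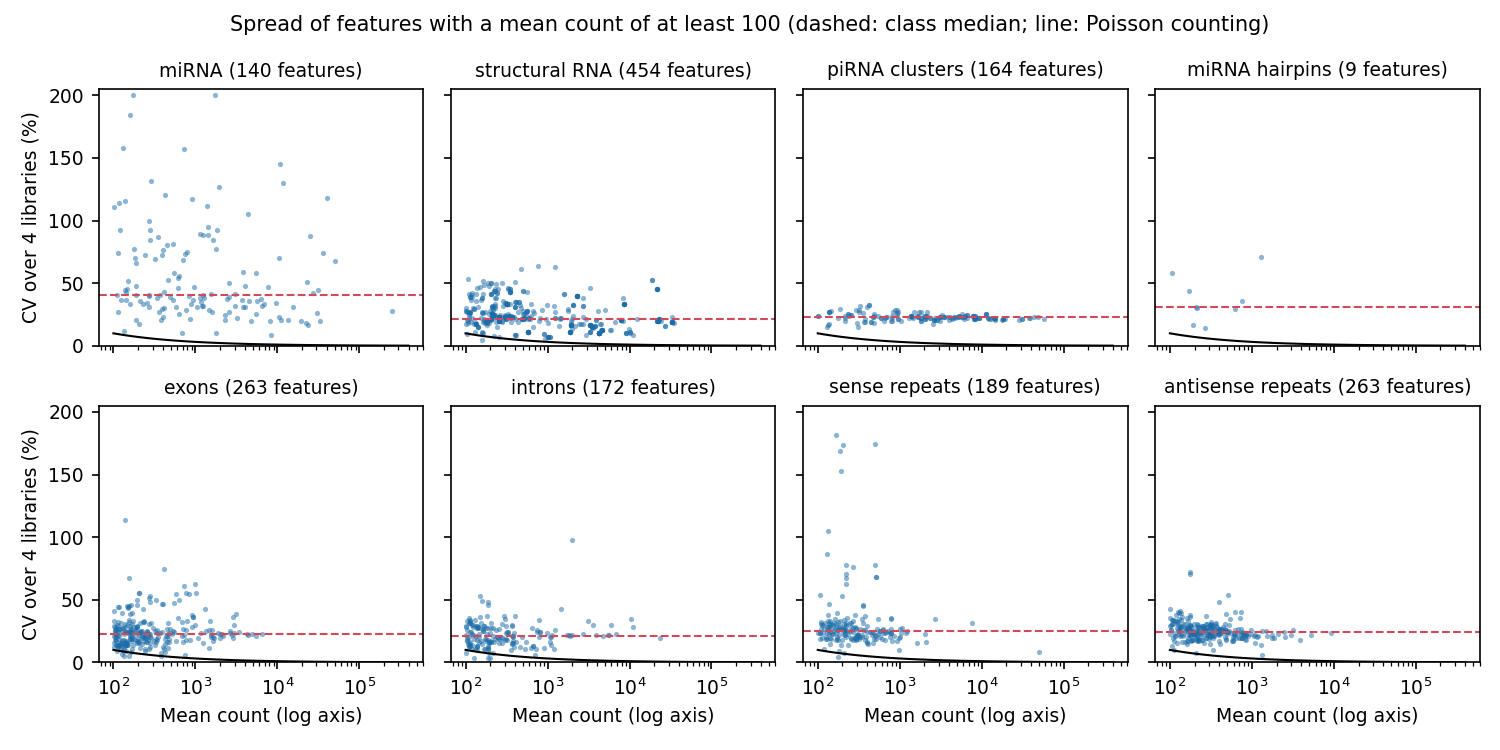
CV over 4 libraries (%) against mean count (log axis) for features with a mean count of at least 100, by class; dashed lines are class medians and solid lines the CV that Poisson counting alone gives. The miRNA points scatter widely around a median of 40.6%, the piRNA cluster points lie close to 22.8%, and most points in all classes lie above the counting line.

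Markers of the labelled cell type were present in every library. The 20 late spermatid and sperm messages all had counts and summed to 716, 635, 755 and 646 CPM, a CV of 8.31%. Smcp, a mitochondrial capsule protein, was at 177, 166, 157 and 141.5 CPM and Odf1, of the outer dense fibres, at 112, 98.1, 108 and 104 CPM. Prm2, which packs sperm DNA, was at 57.4, 50.3, 83.1 and 64.6 CPM. The CVs of the 20 members ran from 5.52% (Odf1) to 72.1% (Meig1), with Tnp1, Akap4 and Ldhc at 53.4%, 54.7% and 48.2%.

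Epididymal epithelium messages summed to 360.1, 416, 499.1 and 486.3 CPM, almost all from 2 genes. Crisp1, a secreted protein that coats sperm, was at 266, 365, 430.2 and 423 CPM and Cd52, a surface antigen shed onto sperm, at 64.7, 45.6, 45.6 and 59.6 CPM. Of the 16 members, 14 had a count, 1 was at 0 and 1 had no exon row. Lcn5 (0.689, 0, 0.921 and 0 CPM) and Lcn8 (0.23, 0, 1.61 and 0 CPM), lipocalins of the caput, were near 0. Adam7 was at 22.5, 3.80, 8.29 and 2.31 CPM and Gpx5 at 2.75, 0.237, 8.52 and 0.419 CPM, both above these lipocalins in every library. Which part of the epididymis the sperm came from was not tested.

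Markers of other cells were lower. Leukocyte messages summed to 9.41, 18.999, 14.97 and 11.3 CPM over 9 genes, red blood cell messages to 16.1, 32.8, 21.6 and 20.6 CPM over 6, general epithelium messages to 28.9, 62.2, 45.8 and 50.1 CPM over 6, and Sertoli and Leydig cell messages to 2.75, 5.94, 10.6 and 3.36 CPM over 6. Replicate 2 was the highest library in all but the last of these lists. Their part in the class shares was not tested.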

How the data were processed

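Small RNA was sequenced from sperm after extraction with guanidinium thiocyanate and a reducing agent, per the labels' protocols, and only read 1 of the pairs was analysed. Trimming with cutadapt is named in the submitters' processing notes; no source used here gives the aligner, genome build, annotation or rule for reads with several matches. The authors deposited 1 table of whole-number counts per annotated feature, with a class for each feature. From these, CPM of each library's total over all classes was computed (Python 3.11.15, pandas 2.3.3). Libraries held 4210785 to 4768713 counts. Reads carry no molecular tags as far as the labels say, so counting errors and limits cover counting only. Results are the value in each library, mean ± SD (n = 4) and CV beside the CV of Poisson counting. No comparison between groups was made, since only 1 group is described; Dixon's outlier ratio and a chi-square of library pairs were used to describe the libraries.

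Named features were the 5 of highest mean CPM in each class (10 for miRNA), the 10 seed families, 6 tRNA isotypes, 6 repeat names per strand and 10 genes for exons and for introns of highest mean, the extremes of the CV (3 at each end for miRNAs of at least 1000 CPM, 2 for other classes at 100 CPM), zeros with a predicted count of at least 1000 and members of marker lists. These rules and the marker lists were chosen with earlier results of these data known. Rows that list several gene symbols (272 of exons, 189 of introns) were left out of gene sums. TMM factors (edgeR 4.0.16) and median-of-ratios factors (DESeq2 1.42.0, R 4.3.3) were alternatives only. The scripts were tested on simulated data. An antisense repeat row that the rule would name is not reported here.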

Additional observations from a re-analysis of the deposited data

Results flagged for a closer look

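In each group of 4 library values, the gap of the highest or the lowest library to its neighbour was divided by the range and compared with Dixon's critical value for 4 values. Of 125 groups 7 exceeded it (5.6%), and chance alone gives about 1 in 20. Replicate 2 was the library set apart in 5 of the 7.

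The share of miRNA was set apart at 27.7% in replicate 2. miR-21a-5p, which is also the only member of the AGCUUAU seed family and so counts in 2 of the 7, was at 13207 CPM in replicate 2. The smooth muscle miRNAs summed to 33401 CPM in replicate 2, and let-7a-5p was at 0 there. Without miR-143 and miR-145 the miRNA share was 18.2%, 25.2%, 17.6% and 16.2% in replicates 1 to 4. Other miRNAs that were highest in replicate 2, among them miR-21a-5p, stayed in this total. The part of smooth muscle RNA in the miRNA share was not tested. In replicate 1, B1_Mus1_copy58276 was set apart at 595 CPM, above the others, and RLTR4_MM-int at 458 CPM, below them.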

How the results depend on the processing

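Rare features, among them Lcn5, Lcn8 and miR-122-5p, had few counts in some libraries, and the part of sequencing depth in this was not tested. Keeping only features with a mean count of at least 10 gave class shares of 37.6% for structural RNA, 5.19% for exons, 5.16% for introns, 3.46% for antisense repeats and 3.55% for sense repeats. With near-identical rows counted once the shares were 16.1% for structural RNA, 27.9% for miRNA, 10.3% for exons, 10.2% for introns, 6.63% for antisense repeats, 6.49% for sense repeats and 0.168% for hairpins, and with the highest row alone 11.2%, 30.3%, 11.2%, 11.1%, 7.24%, 7.08% and 0.182%. Without replicate 2, an alternative added after seeing the data, the structural RNA share was 15.8% and 11.0% under these 2 countings, and the miRNA share 27.0% with the highest row alone. The number of features holding 50% of a class was 3 for structural RNA, 267 for exons, 213 for introns, 32.8 for antisense repeats and 18.5 for sense repeats when copy rows and gene rows were summed. It was 66 for exons, 25 for introns, 48.5 for antisense repeats and 11 for sense repeats at a mean count of at least 10. With near-identical rows counted once it was 11 for structural RNA and 11.2 for piRNA clusters. Of the hairpins, 1 (mir-451a) had a mean count of at least 1000, with a CV of 71.3%. Leaving out 1 replicate at a time, the median CV was 11.5% to 27.4% for piRNA clusters, 13.9% to 28.0% for antisense repeats, 15.1% to 28.6% for sense repeats and 20.1% to 43.2% for hairpins, each lowest without replicate 2. The mean correlation of library pairs was 0.81 over all features with a count, 0.43 with a pseudocount of 0.1 and 0.93 at a mean count of at least 10. Zeros numbered 127 at a predicted count of at least 20 and 20 at 200, against 58 at 50. Of the 45 dominant features, 45 kept their place with either scaling factor, 42 with the median over libraries and 39 to 44 without 1 replicate. The cause of these differences was not tested. No paired analysis was possible because only 1 group is described and its replicate numbers follow accession order.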

Other observations

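Outside the rule for named features, and chosen after their values were seen, exon counts of Akr1b7, an aldose reductase-like protein abundant in the mouse vas deferens, were at 353, 874, 472 and 820.1 CPM in replicates 1 to 4. Malat1, a nuclear long noncoding RNA of most somatic cells, was at 457, 888, 811 and 558 CPM. Introns of Snx5, a sorting nexin whose introns contain the snoRNA Snord17, were at 474, 549.5, 928 and 880.95 CPM, with replicates 3 and 4 high. Satellite repeats in sense orientation were at 831, 323, 421 and 359.6 CPM, with replicate 1 high.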
